A study of Mus musculus with 3 samples.

Results

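The miR-130/miR-301 and miR-148/miR-152 families were described in the small RNA cargo of extracellular vesicles (EVs) from neonatal mouse testis. The members were every mature and hairpin entry named for miR-130a, miR-130b, miR-301a, miR-301b, miR-148a, miR-148b or miR-152, on the 3p or the 5p arm. Of the 14 identifiers that these names allow, 10 were counted in at least 1 library, with 9 mature and 9 hairpin entries, out of 1347 mature and hairpin entries counted in the series. The members had 18 entries in replicate 1, 15 in replicate 2 and 13 in replicate 3. The whole series had 1022, 1001 and 1036 mature and hairpin entries in these libraries. The 3p arm of miR-301b and the 5p arms of miR-148b, miR-152 and miR-301b had no count in any library. A fixed limit of 3 counts was taken for a count of 0. In the shallowest library this allows up to 3.44 CPM (counts scaled to a total of 1e6) of the mature counts. It allows up to 6.08 CPM of the hairpin counts there.

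The series holds a single group of 3 libraries and no comparison group. Each library came from vesicles of 10 male C57/BL6 mice at postnatal day (PND) 7, pooled before sequencing. The decapsulated testes were dissociated with Accumax, and vesicles were taken from the cell-free supernatant and digested with proteinase K and RNase A, so the cell types that released them are mixed. The sample titles contain the word treated, whereas the source names only vesicles from testis and no treatment.

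MicroRNAs guide Argonaute proteins to messenger RNAs, mainly by pairing of the seed, bases 2 to 8 of the mature strand, and so lower the stability and translation of the target. Each hairpin precursor can give a mature strand from its 5p and its 3p arm, and in these families the 3p arm is the usual guide. The miR-130/miR-301 family is known from TGF-beta signalling, adipocytes and vessels. miR-148a is abundant in liver and in milk vesicles, and the miR-148/miR-152 family is known to target the DNA methyltransferase Dnmt1.

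The seeds of the families are related by a shift of 1 base. The RefSeq mature sequences (GRCm38.p6) of the 3p members that were counted are shown, with the seed in capitals, because the relation between the families lies there.
mmu-miR-130a-3p: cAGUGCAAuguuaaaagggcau
mmu-miR-130b-3p: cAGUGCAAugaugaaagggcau
mmu-miR-301a-3p: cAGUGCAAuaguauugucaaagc
mmu-miR-148a-3p: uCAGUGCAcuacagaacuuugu
mmu-miR-148b-3p: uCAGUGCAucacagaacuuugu
mmu-miR-152-3p: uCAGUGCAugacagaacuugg
The letters CAGUGCA stood at bases 2 to 8 of the 3 miR-148/miR-152 members and at bases 1 to 7 of the 3 miR-130/miR-301 members. Among the 1679 mature names in the RefSeq table, 3 held these letters at bases 2 to 8 and 7 at bases 1 to 7, which is 0.596% together. Target letters complementary to the seed are UUGCACU for miR-130/miR-301 and UGCACUG for miR-148/miR-152, and the families have the 6 letters UGCACU in common. The RefSeq table held 13 of the 14 identifiers. It held 4 further mature miRNAs with the seed of a 3p member, namely miR-6341, miR-721, miR-6389 and miR-130c, and all 4 were at 0 in every library, as mature and as hairpin entries.

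The closest 3p members differ by few bases, counted from 1 at the 5′ end. From miR-148a-3p to miR-148b-3p the differences were C9U and U10C, and from miR-148b-3p to miR-152-3p they were C10G and U20G over the 21 bases that both have. From miR-130a-3p to miR-130b-3p they were U11A and A13G. miR-301a-3p was identical to miR-130a-3p at 12 of 22 bases. The mismatches allowed in mapping are not given in the sources used here, so reads of the closest members may have been divided between them.

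The genes of the members lie at separate loci, except for a pair. Mir130a (chr2:84741115-84741178, minus strand) and Mir148a (chr6:51269812-51269910, minus strand) overlap no other gene in the GENCODE vM21 annotation of GRCm38. Mir148b (chr15:103285125-103285221, plus strand) lies in an intron of Copz1 and Mir152 (chr11:96850393-96850465, plus strand) in an intron of Copz2, and these host genes encode paralogous zeta subunits of the COPI coat. Mir301, the gene of miR-301a (chr11:87113004-87113089, plus strand), lies in an intron of Ska2, which encodes a subunit of a kinetochore complex. Mir130b (chr16:17124061-17124142) and Mir301b (chr16:17124400-17124496) are on the minus strand within an intron of 2610318N02Rik, with 257 bases between them. By gene, this pair gave the fewest counts of all.

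The libraries had 870967, 1005836 and 966468 counts on mature entries in replicates 1, 2 and 3, and 493345, 612122 and 577529 on hairpin entries. Levels are given as CPM of the mature or of the hairpin counts of the same library. Mature and hairpin are the authors' types, and how reads were divided between them is not given in the sources used here. miR-202-5p, a miRNA of gonadal somatic cells, had 18595, 28353 and 24941 CPM in replicates 1, 2 and 3, while its 3p strand had 2607, 1444 and 1408. Of the miRNAs of erythroid cells, miR-451a had 519, 317 and 398 CPM and miR-144-3p 8.04, 5.97 and 4.14. The part of any cell type in the levels of the members was not tested.

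Among mature entries, miR-148a-3p was the most abundant member by far and the leading form of its family. It had 1199, 2018 and 1232 mature counts in replicates 1, 2 and 3, or 1377, 2006 and 1275 CPM. Replicate 2 was the highest and the other libraries lay close together. The mean was 1553 ± 396 CPM (SD, n = 3), rank 54 of 604 mature entries. The exact binomial (Clopper-Pearson) 95% interval in replicate 2, 1919.8 to 2096 CPM, did not reach that of either other library. Over miRNAs with a mean mature count of at least 1000, the median coefficient of variation between libraries was 18.5%, against 1.96% from counting alone. These intervals and limits reflect counting error alone. The deposited molecular identifiers were not used to find duplicates made by PCR, and any duplicates in the counts would make the intervals too narrow.

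miR-152-3p, encoded within Copz2, had 62, 219 and 49 mature counts in replicates 1, 2 and 3, or 71.2, 218 and 50.7 CPM. Replicate 2 stood well above the others, and the mean of 113 ± 91.1 CPM (SD, n = 3) rested on it. Without replicate 2 the mean was 60.9 CPM. miR-148b-3p, encoded within Copz1, had 39 and 71 mature counts in replicates 1 and 2 and 0 in replicate 3, or 44.8, 70.6 and 0 CPM. Replicate 3 thus lacked a mature count of miR-148b-3p, where a count of 0 allows up to 3.10 CPM. The mean of miR-148b-3p was 38.5 ± 35.7 CPM (SD, n = 3), and 57.7 CPM over replicates 1 and 2. The 5p strand of miR-148a had 22, 38 and 0 mature counts, again with none in replicate 3.

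In the other family, miR-301a was counted on both arms. miR-301a-3p had 50, 90 and 75 mature counts in replicates 1, 2 and 3, or 57.4, 89.5 and 77.6 CPM, with a mean of 74.8 ± 16.2 (SD, n = 3). miR-301a-5p had 36, 130 and 59 mature counts, or 41.3, 129 and 61.0 CPM, with a mean of 77.2 ± 46.1 (SD, n = 3), and 51.2 without replicate 2. The 5p arm was the higher arm in replicate 2 and the 3p arm in replicates 1 and 3. miR-130a-3p had 39, 45 and 64 mature counts, or 44.8, 44.7 and 66.2 CPM, with a mean of 51.9 ± 12.4 (SD, n = 3). Its 5p strand had 14, 25 and 2 mature counts. miR-130b was seen in replicate 1 alone, with 4 mature counts of the 5p arm and 20 hairpin counts of the 3p arm.

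**Figure D1:**
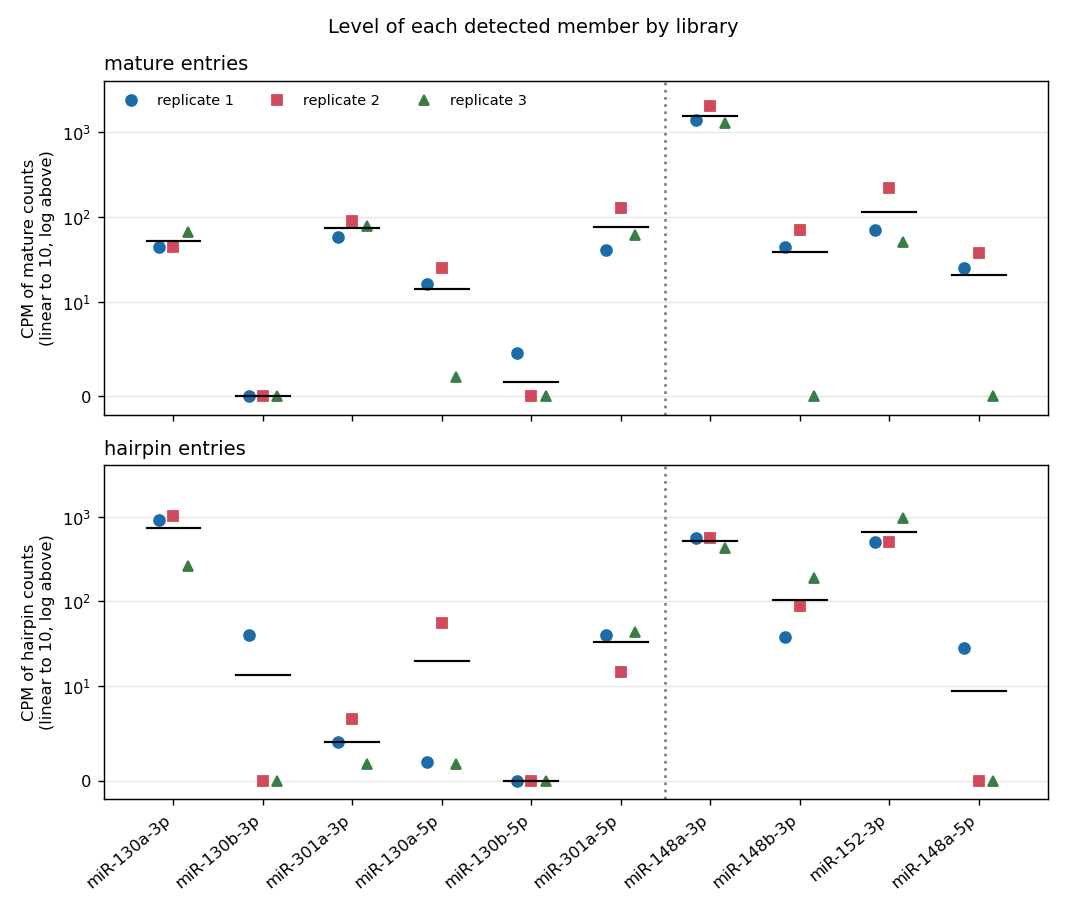
Level of the 10 identifiers counted in any library, in CPM of the mature counts (upper panel) and of the hairpin counts (lower panel) of each library, on an axis that is linear up to 10 and logarithmic above. Points are libraries, black lines are means over the 3 libraries, and the dotted line parts the miR-130/miR-301 members on the left from the miR-148/miR-152 members on the right. Mature miR-148a-3p sits between 1275 and 2006 CPM, above every other mature member, whereas miR-130a-3p and miR-152-3p are high among the hairpin entries.

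In the order of mean mature CPM, the 3p members ran from miR-148a-3p through miR-152-3p, miR-301a-3p and miR-130a-3p to miR-148b-3p. This order set which neighbours were compared and came from the same 3 libraries, so the p-values of these steps are descriptive. Of the 15 ratios between members, arms or entry types that were tested, none could pass a threshold of 0.05, because a two-sided exact permutation test that flips the signs of the library values allows no p below 0.25 with 3 libraries. The log2 ratio of miR-148a-3p to miR-152-3p was 4.27, 3.20 and 4.65 in replicates 1, 2 and 3, a mean of 4.04 ± 0.75 (SD, n = 3; exact test, p = 0.25, 0.417 after Benjamini-Hochberg adjustment over the 15 ratios). With mature and hairpin entries summed, the mean of this ratio fell to 1.91. Among mature entries the step was far larger than its spread and had the same direction in every library. The next steps were not of this kind. miR-152-3p and miR-301a-3p changed places between libraries, with a log2 ratio of 0.33 ± 0.95 (SD, n = 3; exact test, p = 0.75, adjusted 0.938). miR-301a-3p exceeded miR-130a-3p in every library, by 0.53 ± 0.41 on the log2 scale (SD, n = 3; exact test, p = 0.25, adjusted 0.417). miR-130a-3p and miR-148b-3p had 39 counts each in replicate 1, and the latter was the higher in replicate 2 and at 0 in replicate 3, so they had no stable order.

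The families were far apart when mature entries of the 3p arm were summed. The miR-148/miR-152 family had 1300, 2308 and 1281 counts in replicates 1, 2 and 3, against 89, 135 and 139 for the miR-130/miR-301 family. It was thus 14.6-fold, 17.1-fold and 9.22-fold the larger, a log2 ratio of 3.72 ± 0.46 (SD, n = 3). These sums over members are given as a description, with no test. Most of the gap was miR-148a-3p, which held 92.2%, 87.4% and 96.2% of the mature 3p counts of its family. With the most abundant 3p member of each family left out, 101, 290 and 49 counts stood against 39, 45 and 64 in replicates 1, 2 and 3. The log2 ratio was then 1.37, 2.69 and -0.39, so its direction turned in replicate 3, and the mean of 1.23 ± 1.54 (SD, n = 3) was smaller than its spread. Both arms included, miR-148/miR-152 held 0.173% ± 0.0535 and miR-130/miR-301 0.0220% ± 0.00631 of all mature counts (SD, n = 3 each).

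Among hairpin entries the families were much closer. The 3p hairpin entries of miR-148/miR-152 had 536, 703 and 904 counts in replicates 1, 2 and 3, and those of miR-130/miR-301 had 472, 630 and 151. The miR-148/miR-152 family was 1.14-fold and 1.12-fold the larger in replicates 1 and 2, and 5.99-fold in replicate 3. The mean log2 ratio of 0.97 ± 1.39 (SD, n = 3) was smaller than its spread. With mature and hairpin entries summed, the log2 ratio was 1.71, 1.98 and 2.91, a mean of 2.20 ± 0.63 (SD, n = 3), and 1.84 without replicate 3. The direction was the same in every library and for these 3 ways of counting, whereas the size depended on which entries were counted.

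**Figure D2:**
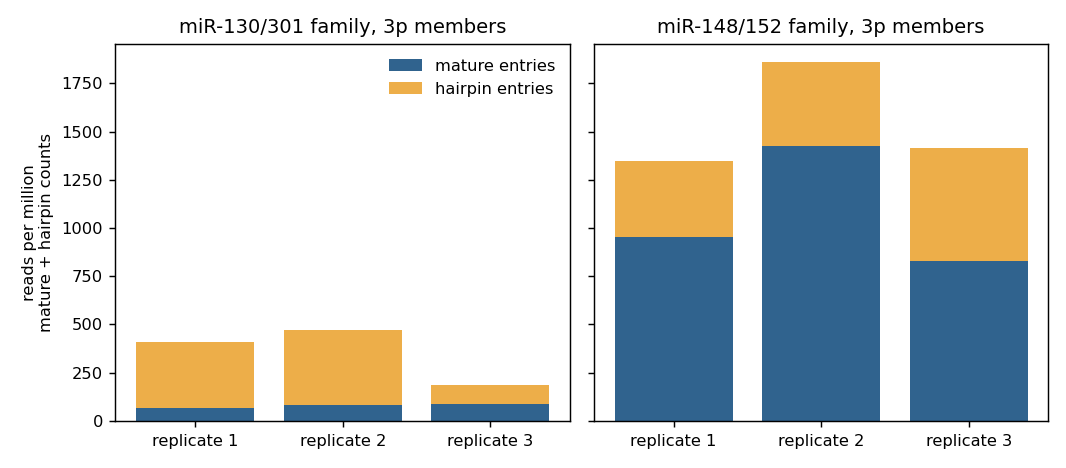
Reads of the 3p members of each family in each library, as CPM of mature plus hairpin counts, divided into mature entries (blue) and hairpin entries (yellow). The miR-130/miR-301 bars are mostly hairpin in replicates 1 and 2 and shortest in replicate 3, where the total is 188 CPM against 411 and 473, while the miR-148/miR-152 bars reach 1346, 1861 and 1415 CPM.

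The balance between mature and hairpin entries set the members apart within each family. miR-148a-3p was counted mainly as mature, at 81.5%, 85.6% and 83.5% of its mature and hairpin counts in replicates 1, 2 and 3. Its relatives miR-152-3p and miR-148b-3p varied widely. miR-152-3p was mature at 20.3%, 41.5% and 8.17%, with 244, 309 and 551 hairpin counts. For miR-148b-3p the mature share was 67.2%, 56.8% and 0%, with 19, 54 and 109 hairpin counts.
The libraries thus had 58, 125 and 109 reads of miR-148b-3p in all, and the highest hairpin count stood in replicate 3, the library without a mature count. Such a library with 0 mature counts beside at least 10 hairpin counts, and at least 10 mature counts in the other libraries, was found for 28 of 347 identifiers with at least 10 reads in every library (8.07%), and for 1 of the 6 members among them. Replicate 3 was the library at 0 for 13 of the 28.

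The contrast was sharper in the miR-130/miR-301 family. miR-301a-3p was almost wholly mature, at 96.2%, 95.7% and 98.7%, with 2, 4 and 1 hairpin counts. miR-130a-3p was mature at 7.98%, 6.71% and 29.9%, and its hairpin entry had 450, 626 and 150 counts, or 912, 1023 and 260 CPM of the hairpin counts. The hairpin entry of miR-130a-3p in replicate 3 lay far under the others, while its mature entry was highest there. By the sum of both entries miR-130a-3p held 87.2%, 87.7% and 73.8% of the 3p counts of its family, and miR-301a-3p 9.27%, 12.3% and 26.2%. The leading member of the miR-130/miR-301 family therefore depended on the entry, since among the 3p members miR-301a-3p was ahead by mature counts and miR-130a-3p by the sum, with a log2 ratio of miR-301a-3p to miR-130a-3p of -2.52.

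The RefSeq hairpins of both genes are shown because the entry types parted most between them, with the annotated 5p and 3p strands in capitals.
Mir130a: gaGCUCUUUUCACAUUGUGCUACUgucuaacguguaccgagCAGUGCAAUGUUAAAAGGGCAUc
Mir301: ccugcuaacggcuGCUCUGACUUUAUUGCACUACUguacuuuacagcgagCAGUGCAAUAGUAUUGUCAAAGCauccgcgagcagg

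The log2 ratio of mature to hairpin counts was -2.85 ± 1.41 for miR-130a-3p and -1.99 ± 1.50 for miR-152-3p, below 0 in every library (SD, n = 3; exact sign-flip test, p = 0.25 each, adjusted 0.417). It was 5.12 ± 0.96 for miR-301a-3p, 2.35 ± 0.22 for miR-148a-3p and 1.98 ± 1.63 for miR-301a-5p, above 0 in every library (SD, n = 3; exact sign-flip test, p = 0.25 each, adjusted 0.417). Of the 6 members with at least 10 reads in every library, 3 were thus higher as mature and 2 as hairpin in each library. Among all 347 such identifiers 39.5% were higher as mature and 33.4% as hairpin in each library, so the counts of members were near the background. The median mature share over the 347 identifiers was 52.1%, with quartiles of 26.0% and 74.6%. miR-130a-3p and miR-152-3p, pooled over libraries at 10.8% and 23.0%, lay below the lower quartile, and miR-148a-3p and miR-301a-3p, at 83.8% and 96.8%, above the upper one. In single libraries, miR-130a-3p in replicate 3 (29.9%) and miR-152-3p in replicate 2 (41.5%) lay between the quartiles.

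**Figure D3:**
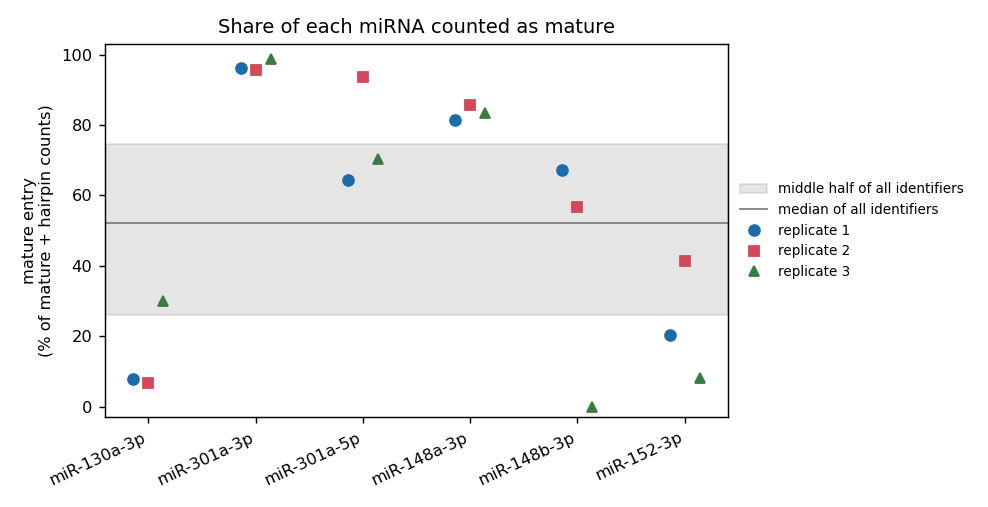
Mature counts as a percentage of mature plus hairpin counts for the 6 members with at least 10 such reads in every library. Points are libraries, and the grey band and line give the quartiles and the median, 52.1%, of 347 identifiers pooled over libraries. miR-148a-3p and miR-301a-3p keep above the band in each library, and miR-148b-3p spreads from 67.2% to 0%.

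The 3p arm of miR-148a exceeded the 5p arm in every library, with 1199 against 22, 2018 against 38 and 1232 against 0 mature counts. The log2 ratio was 5.77 and 5.73 in replicates 1 and 2 (exact sign-flip test over the 3 libraries, with 1 added to both counts in replicate 3, p = 0.25, adjusted 0.417). With 330 counts on the 3p arm over all libraries and none on the 5p arm, miR-152-3p was at least 110-fold higher than its 5p strand, taking 3 counts over the group as the limit, and at least 37-fold without replicate 2. By the same limit miR-148b-3p, with 110 counts, was at least 36.7-fold higher than its 5p strand, and at least 23.7-fold without replicate 1 and 13-fold without replicate 2.
The 3p arm of miR-130a was higher in every library too, with log2 ratios of 1.48, 0.85 and 5.0 in replicates 1, 2 and 3 (exact sign-flip test, p = 0.25, adjusted 0.417). Neither arm of miR-301a led in all libraries, with a log2 ratio of 0.10 ± 0.55 (SD, n = 3; exact sign-flip test, p = 1, adjusted 1). The 3p arm led in every library for 2 of the 3 members tested, against 31.6% of 133 arm pairs. These pairs had at least 10 mature counts over both arms in every library. Pairs with an arm that had no mature or hairpin count in any library were left out, miR-152 among them.

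The spread between libraries differed among the members. For 272 mature miRNAs, 5 members among them, each library had at least 10 counts, and the highest CPM exceeded the lowest by a median of 1.73-fold, and by 2.56-fold over those with a mean count from 10 to under 100. The factor was 1.57 for miR-148a-3p, 1.56 for miR-301a-3p and 1.48 for miR-130a-3p, each below the median of all 272. For miR-148a-3p it was above the median of 1.44-fold over miRNAs with a mean count of at least 1000, to which this member belongs. It was 3.13 for miR-301a-5p and 4.29 for miR-152-3p, both above the median. Summing mature and hairpin entries lowered the factor of miR-152-3p to 1.73 and that of miR-301a-5p to 2.09, and raised that of miR-130a-3p to 2.99. The coefficient of variation (CV) of miR-148a-3p was 25.5%, whereas counting alone would give 2.60%. For miR-130a-3p it was 23.9% against 14.2% from counting.

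**Figure D4:**
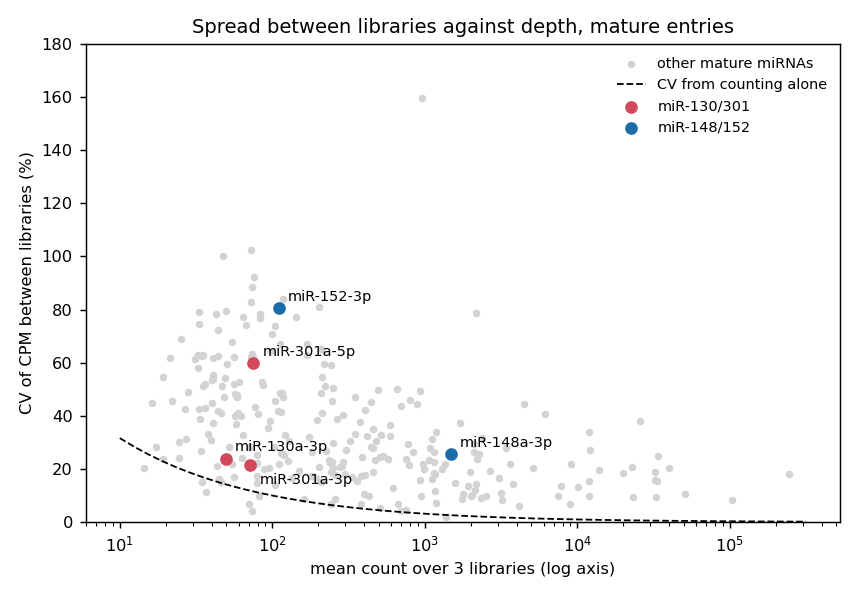
CV of CPM between the 3 libraries (%) against the mean count (log axis) for the 272 mature miRNAs having at least 10 counts in each library, with the members in colour and the CV from counting alone as a dashed line. miR-152-3p, at 80.5%, lies near the top of the cloud. miR-130a-3p and miR-301a-3p, at 23.9% and 21.7%, lie above their CVs from counting alone of 14.2% and 11.8%.

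The mature miRNAs most like the entry with the highest mean mature CPM in each family, miR-148a-3p and miR-301a-5p, were found by the Euclidean distance of log2(CPM + 1) over the 3 libraries, among 595 other mature entries. miR-542-5p, with 1286, 1672 and 1142 CPM in replicates 1, 2 and 3, and miR-871-5p, with 1439, 1485 and 1438 CPM, were nearest to miR-148a-3p, at distances of 0.32 and 0.47. miR-24-2-5p, with 50.5, 118 and 71.4 CPM, and miR-329-3p, with 55.1, 120.3 and 73.5 CPM, were nearest to miR-301a-5p, at 0.38 and 0.50. The lead of miR-301a-5p over miR-301a-3p rested on replicate 2, without which the means were 51.2 and 67.5 CPM. These are likenesses in level among replicate libraries of a single condition.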

How the data were processed

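Small RNA of PND7 testis EVs was sequenced in 3 libraries of 1 group. The authors removed low-quality BGISEQ-500 reads, mapped clean reads with Bowtie2 and cmsearch to the genome (mm10 in the submitters' processing notes) and small RNA databases, and assigned each read to 1 class in an order that began with miRBase. They deposited whole-number counts per small RNA entry and per class, without normalization, and these counts were used. Clean reads numbered 25716952, 26002463 and 27939308. The deposited column of molecular identifiers and the column of percentages were not used.

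Counts were scaled to the mature or hairpin total of each library. Where an entry had 0 counts, 1 was added to both counts of a ratio. Ratios between single members were tested over libraries by an exact two-sided sign-flip permutation, with Benjamini-Hochberg adjustment. The computation of the spread between libraries was tested on simulated data. The members and lists were chosen with earlier results of these data known. Named miRNAs were all identifiers of both families, RefSeq miRNAs with a seed of a 3p member, the 2 mature miRNAs nearest to the most abundant mature entry of each family, and precursor entries named for the families. miR-202, miR-451a and miR-144-3p were added after values were seen. Sequences came from RefSeq (GRCm38.p6) and host genes from GENCODE vM21. Tables were processed with pandas 2.3.3 and numpy 2.4.6 under Python 3.11.15, intervals came from SciPy 1.17.1, and figures from matplotlib 3.10.9.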

Additional observations from a re-analysis of the deposited data

Results flagged for a closer look

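Reads of both families were also found in the precursor class, which the comparisons did not use, above the 3 counts that a count of 0 allows. The entry for the mir-148/mir-152 precursor family had 127, 276 and 80 counts in replicates 1, 2 and 3, and the entry for the mir-130 precursor family had 34, 25 and 39. The mir-301 precursor entry had 20 counts in replicate 1, 0 in replicate 2 and 1 in replicate 3. As for the mature entries of the 3p arm, the mir-148/mir-152 entry was the larger in every library and highest in replicate 2. Without a control library, the level from misassigned reads is not known.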

How the results depend on the processing

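The alternatives were set with earlier results known, except leaving out replicate 3 from the summed entries, leaving out libraries at 0, and leaving out each replicate from the limits of the arms, which were chosen after seeing the data. The log2 ratio of miR-148/miR-152 to miR-130/miR-301 was 3.72, and its mean stayed above 0 in the alternatives run, at 0.97 with hairpin entries only, 2.20 with mature and hairpin entries summed, 2.97 with both arms summed, 3.75 with pooled counts and 3.54 to 3.98 without each replicate. Without the most abundant member of each family the mean was 1.23, but replicate 3 turned to -0.39. Other denominators changed the shares by construction. For miR-130/miR-301 the share was 0.000796% of clean reads, 0.0138% of mature plus hairpin counts and 0.0295% of mature counts without miR-127-3p. For miR-148/miR-152 these denominators gave 0.00625%, 0.108% and 0.233%. Summing mature and hairpin entries gave 0.0435% for miR-130/miR-301, against 0.0220% for mature entries. For miR-148/miR-152 the summed entries gave 0.156%, against 0.173%. Leaving out each replicate gave 0.0186% to 0.0248% for miR-130/miR-301 and 0.142% to 0.193% for miR-148/miR-152.

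Of 71 alternatives for the 15 ratios of single members, 8 changed the direction, in 5 ratios, and the cause was not tested. With mature and hairpin entries summed, miR-301a-3p over miR-130a-3p turned to -2.52 and miR-301a-3p over miR-301a-5p to -0.27. The latter was also -0.066 with pooled counts and -0.028 without replicate 3. Leaving out each replicate gave -0.092 to 0.41 for this ratio and -0.15 (without replicate 2) to 0.80 for miR-152-3p over miR-301a-3p. For miR-130a-3p over miR-148b-3p, with a mean of 1.79, it gave -0.33 (without replicate 3) to 3.01. For miR-148b-3p mature over hairpin, with a mean of -1.78, it gave -3.19 to 0.72 (without replicate 3). Both means depend on replicate 3, where miR-148b-3p had 0 mature counts. With 1 added to both counts, the log2 ratios there were 6.02 and -6.78. Of 84 alternatives for the levels of single members, 18 shifted the level beyond its SD, 8 through scaling to clean reads. Scaling to mature plus hairpin counts, or to mature counts without miR-127-3p, also did so for miR-130a-3p, miR-301a-3p and miR-148a-3p. Such changes of denominator shift levels by construction. Counts under 100 limit most members other than miR-148a-3p. The ratios paired entries counted in the same library. No comparison between groups was possible because there is a single group.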
